A study of Mus musculus with 8 samples.

Results

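The MHC class I antigen presentation genes were taken as a fixed list of 9: the heavy chain genes H2-K1 and H2-D1, the light chain gene B2m, the peptide transporter genes Tap1 and Tap2, the tapasin gene Tapbp, the immunoproteasome genes Psmb8 and Psmb9, and Nlrc5, a transcriptional activator of class I genes. They are 9 of the 24980 gene symbols counted, and all 9 were among the 17582 that passed the filter on low counts and were tested. RNA-seq was performed on 8 libraries of mouse skeletal myogenic cells in 4 groups, with 2 biological replicates in each. TF cells were freshly isolated from teratomas formed by E14-EGFP mouse embryonic stem cells, 1 line carrying a green fluorescent reporter, in irradiated and cardiotoxin-injured muscle of immunodeficient, dystrophin-deficient NSG-mdx4Cv mice. They were sorted as EGFP+ cells that lacked the endothelial marker CD31 and the blood cell marker CD45 and carried α7-integrin and VCAM-1. TE cells were such teratoma-derived cells expanded to passage 8. SF cells were satellite cells (resident muscle stem cells) freshly isolated from adult animals, and SE cells were the same kind of cell expanded to passage 8. Both cultures were kept on gelatin in a myogenic expansion medium. Strain, age and the number of animals behind each satellite cell library are not given in the sources used here. TF and TE may thus differ from SF and SE in strain as well as in origin, and fresh and expanded cells differ in passage and in the whole setting of culture, so these cannot be told apart.

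Class I molecules show short peptides from inside the cell to CD8 T cells. Proteasomes cut proteins into peptides, the TAP1-TAP2 transporter carries these into the endoplasmic reticulum, and tapasin holds an empty heavy chain with β2-microglobulin next to the transporter until a fitting peptide binds. Interferons raise the transcription of most genes of this route through factors such as IRF1, and NLRC5 acts with RFX factors at the class I promoters.

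The libraries held between 11930961 and 21146632 estimated counts, of which the ribosomal precursor Rn45s took between 7.99% and 21.3%. Replicates of a group differed by more than sampling noise in all 4 groups, so none was a duplicate. Chi-square per degree of freedom was 30.7 in TF, 12.1 in TE, 53.4 in SF and, the highest, 93.0 in SE. All 11 skeletal myogenic markers were detected in each group, with summed normalized counts between 27365 and 79550 per library. Pax3 held only 8.03 and 0 counts in TE. Markers in this sum moved in both directions. By the calls defined below, 5 were higher and 4 lower in TE versus TF (9.86% and 16.2% of all tested genes). In SE versus SF 4 were higher and 4 lower (20.9% and 19.8%). Mean Myf5 was 1084 in TF and 104 in TE, and mean Chrna1 922 and 6762. TF replicate 1 stood apart in blood cell genes: its 14 haematopoietic markers summed to 10745 normalized counts, against 994 in TF replicate 2. These markers summed to 1626 and 2070 in SF, to 86.4 and 91.7 in TE and to 171 and 251 in SE. In TE and SE 8 and 7 of the 14 respectively, Ptprc (CD45) among them in both, were at 0 in both libraries. Hba-a1 held 654 and 1257 of the normalized counts in SF. Laptm5 went the other way in satellite cells, at 5.10 and 18.2 in SF and 95.8 and 84.1 in SE. The 10 endothelial markers also differed between the TF replicates, at 5252 and 1601. They summed to between 1601 and 7398 in the fresh libraries and between 78.6 and 135 in the expanded ones. The 9 fibro-adipogenic markers summed to between 90290 and 312632 against between 9468 and 15428. Col3a1 alone held 267116 of these counts in TF replicate 1 and 8796 in TE replicate 1. The 7 pericyte and smooth muscle markers summed to 18801 and 18238 in TF and, mostly from Acta2 (22589 and 22390), to 24058 and 23837 in TE. They summed to 19622 and 17908 in SF. The SE replicates lay far apart, at 7035 and 24246, with Acta2 at 5208 and 21850. Of these 7, called as defined below, TE versus TF had 6 lower and 1 higher, and SE versus SF 5 lower and 1 higher. Class I genes are active in all of these cell types. The part of such cells in the differences between fresh and expanded cells was not tested, and in bulk RNA fewer cells of a type and less RNA per cell cannot be told apart. Counts of called genes that rest on TF are given below with and without replicate 1, and single values are given without it where a call or a size changed.

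Expanded cells of both origins had far less class I RNA than fresh cells. A gene was called changed at an adjusted p below 0.05 (edgeR's quasi-likelihood test, Benjamini-Hochberg adjustment over the 17582 tested genes) and a fold above the minimum that the study's methods set. TE was lower than TF for 8 of the 9 genes and higher for none, while 16.2% of all tested genes were called lower in that comparison, 9.86% higher and 26.1% in either direction. SE was lower than SF for 7 of the 9 and higher for none, beside 19.8% of all tested genes called lower, 20.9% higher and 40.7% in either direction. The median fitted log2 difference of the 9 was -4.07 in TE versus TF and -3.39 in SE versus SF, next to -0.18 and -0.23 for all tested genes. Without TF replicate 1, 8 of the 9 were again called lower in TE. The sum of normalized counts over the 9 genes was 10133 and 8488 in TF, 1525 and 1456 in TE, 14620 and 18411 in SF, and 1276 and 1634 in SE.

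**Figure D1:**
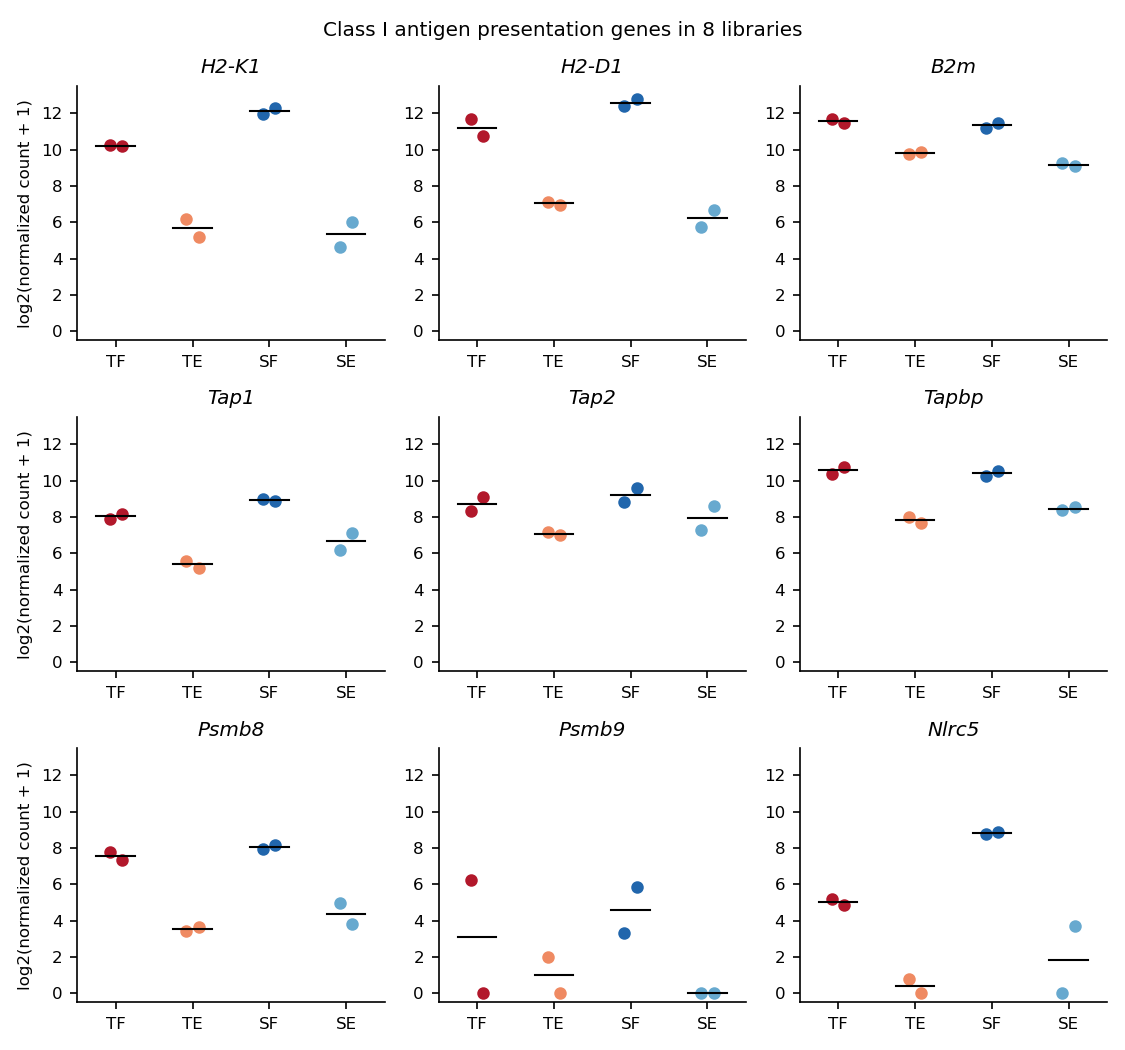
Each panel plots 1 of the 9 genes as log2(normalized count + 1) on the y axis, with 1 point per library, 2 libraries in each of the groups TF, TE, SF and SE on the x axis, and a bar at the mean of the plotted values. H2-K1 lies at 1219 and 1174 normalized counts in TF and 71.1 and 35.5 in TE, and both libraries of each fresh group lie above both libraries of its expanded counterpart for all genes but Psmb9 in TF versus TE, where TF replicate 2 is at 0.

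The heavy chains H2-K1 and H2-D1 form the peptide-binding groove and are classical class I genes. H2-K1 (GRCm38, chromosome 17, 33996017 to 34000347, minus strand) had normalized counts of 1219 and 1174 in TF, 71.1 and 35.5 in TE, 3992 and 5056 in SF, and 24.3 and 63.8 in SE. Fresh and expanded libraries were far apart, and the ranges of TE and SE overlapped. The mean fell from 1196 ± 32.0 to 53.3 ± 25.2 (SD, n = 2) in the teratoma-derived cells and from 4524 ± 752 to 44.1 ± 27.9 in satellite cells, 22.4-fold and 103-fold. The fitted log2 differences of H2-K1 were -4.43 (s.e., an approximate standard error, 0.444, edgeR adjusted p = 1.03e-04) and -6.51 (s.e. 0.486, adjusted p = 1.20e-05).

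H2-D1 (chromosome 17, 35262730 to 35267499, plus strand) had normalized counts of 3342 and 1692 in TF, 140 and 122 in TE, 5380 and 6970 in SF, and 52.9 and 101 in SE. It was the one heavy chain whose TF libraries lay apart, the haematopoietic-marker-rich replicate 1 being the higher. The fitted log2 difference of H2-D1 was -4.20 in TE versus TF (s.e. 0.405, edgeR adjusted p = 7.87e-05) and -6.14 in SE versus SF (s.e. 0.445, adjusted p = 1.04e-05). With each library left out in turn these ranged from -4.57 to -3.61 and from -6.67 to -5.72. H2-K1 made up between 22.5% and 42.6% of the normalized counts of both genes together in the 8 libraries.

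Read assignment limits what can be said of each heavy chain on its own. Of the distinct 31-base windows of the annotated H2-K1 transcripts, 22.8% also occur in another gene, and of those of H2-D1 26.7%, with 358 windows shared between both genes. For B2m, Psmb9 and Nlrc5 no window was shared, and for Tap1, Tap2, Tapbp and Psmb8 the share was 0.825%, 1.34%, 4.62% and 0.378%. The reference is of the C57BL/6J strain, E14 cells come from a 129 strain, the NSG host has a NOD background, and the strain of the satellite cell donors is not given in the sources used here. Mouse strains carry different alleles of these heavy chain genes, and the effect of such haplotypes on the counts was not tested. The normalized counts of 25 class I heavy chain genes, H2-K1, H2-D1 and 23 other H2 genes, were therefore also summed, an alternative chosen after the data were seen. This sum was 6397 and 4814 in TF, 385 and 260 in TE, 17266 and 18659 in SF, and 357 and 481 in SE, and its log2 difference was -4.06 in TE versus TF (s.e. 0.285, edgeR adjusted p = 1.32e-05) and -5.23 in SE versus SF (s.e. 0.300, adjusted p = 3.47e-06). The fall with culture was thus also called where reads were not split within the family. H2-K1 and H2-D1 together held 71.3% and 59.5% of the sum in TF, 55.0% and 60.6% in TE, 54.3% and 64.4% in SF, and 21.6% and 34.4% in SE.

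Promoters of H2-K1, H2-D1 and B2m, which encode class I chains, carry the kinds of element through which IRF1 and NLRC5 are known to act. The upstream sequences of these 3 genes are shown for this reason and because their RNA fell with culture. Each is the stretch of 250 bases before the start in RefSeq (GRCm38.p6), 5′ to 3′ on the strand of the gene, at chr17:34000348-34000597 (minus strand), chr17:35262844-35263093 (plus strand) and chr2:122147437-122147686 (plus strand). Capitals mark a match to AANNGAAA, part of an IRF-binding element, on either strand (it reads TTTCACTT on the shown strand of both heavy chain genes), the letters TGACG of an X2-like element and the letters ATTGG of a Y-box.
H2-K1: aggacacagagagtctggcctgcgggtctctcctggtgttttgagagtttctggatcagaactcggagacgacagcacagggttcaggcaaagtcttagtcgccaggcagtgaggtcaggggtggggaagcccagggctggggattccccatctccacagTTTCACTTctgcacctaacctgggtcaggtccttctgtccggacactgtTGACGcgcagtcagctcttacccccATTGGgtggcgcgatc
H2-D1: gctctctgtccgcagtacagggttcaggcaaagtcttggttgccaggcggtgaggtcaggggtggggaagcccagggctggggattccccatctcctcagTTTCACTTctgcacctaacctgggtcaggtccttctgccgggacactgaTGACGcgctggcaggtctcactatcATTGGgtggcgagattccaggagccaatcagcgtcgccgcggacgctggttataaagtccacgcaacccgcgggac
B2m: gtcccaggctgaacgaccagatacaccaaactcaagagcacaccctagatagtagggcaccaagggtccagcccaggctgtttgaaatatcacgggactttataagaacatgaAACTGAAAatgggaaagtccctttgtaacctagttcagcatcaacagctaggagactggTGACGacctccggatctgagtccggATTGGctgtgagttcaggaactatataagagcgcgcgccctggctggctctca

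In all 3 genes TGACG was followed by ATTGG after 20 bases, at positions -41 to -12 of H2-K1, -101 to -72 of H2-D1 and -78 to -49 of B2m, counted back from -1, the last base before the start. A TGACG followed by ATTGG on the same strand within 15 to 25 bases occurred in 0.381% of the 32851 promoters of this length (125), and with AANNGAAA in addition in 0.0761% (25). Alone, AANNGAAA occurred in 21.3% of promoters, TGACG in 17.8% and ATTGG in 33.8%, counting both strands. The elements were chosen with these sequences in view, so the counts are a description. The H2-K1 and H2-D1 stretches aligned over 177 positions, of which 161 (91.0%) were identical. Sequences were found for 7 of the 9 genes. The Tap1 and Psmb9 stretches run in opposite directions and share 225 bases (chr17:34187331-34187555), and the pair of TGACG and ATTGG was in none of Tap1, Psmb9, Psmb8 and Tapbp within these windows.

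B2m (chromosome 2, 122147686 to 122153083, plus strand) encodes β2-microglobulin, the invariant light chain that every classical heavy chain needs to reach the cell surface. Its normalized counts were 3350 and 2868 in TF, 852 and 922 in TE, 2367 and 2844 in SF, and 617 and 543 in SE. Fresh and expanded libraries did not overlap, but B2m fell much less than the heavy chains, 3.50-fold with culture of the teratoma-derived cells and 4.49-fold with culture of satellite cells as ratios of the means. The log2 differences of B2m were -1.75 (s.e. 0.195, edgeR adjusted p = 1.93e-04) and -1.98 (s.e. 0.197, adjusted p = 5.95e-05). Per kilobase of exon, merged over all annotated transcripts of a gene, B2m had the highest mean of the 9 genes in every group. The values were 3615 in TF, 1032 in TE, 3030 in SF and 674 in SE. This ranking depends on the merged lengths, 0.86 kilobases for B2m and 2.58 for H2-D1, which can exceed those of the transcripts expressed. Without the division, mean H2-D1 was 6175 and mean B2m 2605 in SF.

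The balance between the transcripts of these chains therefore shifted, and protein was not measured here. Per 100 counts of B2m there were 36.4 and 40.9 counts of H2-K1 in TF, 8.35 and 3.85 in TE, 169 and 178 in SF, and 3.94 and 11.8 in SE. For H2-D1 the ratios were 99.8 and 59.0 in TF, 16.5 and 13.3 in TE, 227 and 245 in SF, and 8.58 and 18.7 in SE. Within a library these ratios do not depend on the scaling between libraries. They were highest in SF and lower in both expanded groups than in either fresh group, with no overlap.

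**Figure D2:**
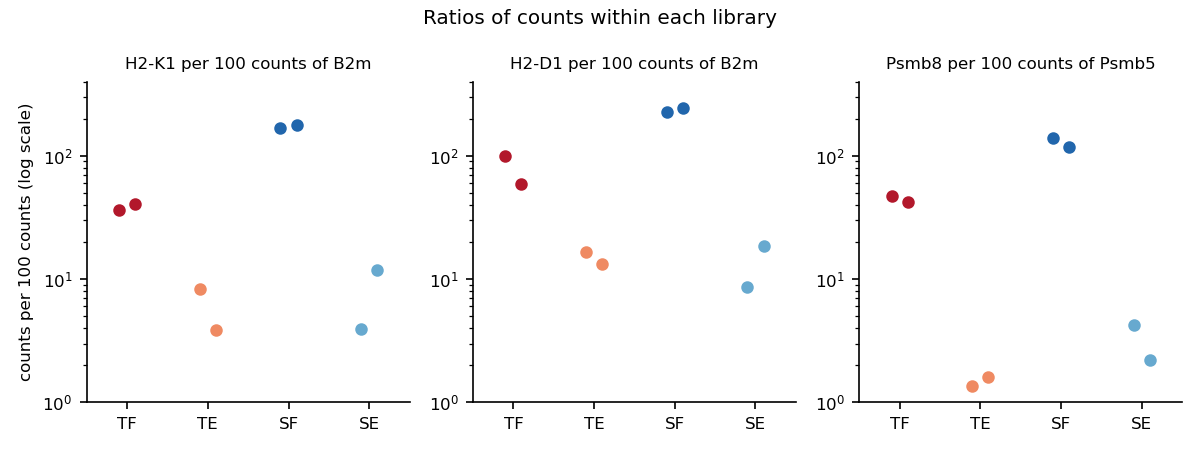
The panels plot, on a log y axis and with 1 point per library in the groups TF, TE, SF and SE, the counts of H2-K1 per 100 counts of B2m, of H2-D1 per 100 counts of B2m, and of Psmb8 per 100 counts of Psmb5. The ratio of Psmb8 to Psmb5 is 139 and 117 in SF, 47.6 and 42.0 in TF, and between 1.37 and 4.25 in the expanded libraries.

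The peptide-loading genes fell with culture to different degrees. Tapbp (chromosome 17, 33915899 to 33929292, plus strand), which encodes tapasin, had 1335 and 1727 normalized counts in TF, 259 and 200 in TE, 1231 and 1494 in SF, and 327 and 371 in SE. The fresh groups overlapped each other and lay above both expanded groups. Its log2 difference was -2.68 in TE versus TF (s.e. 0.248, edgeR adjusted p = 6.46e-05) and -1.78 in SE versus SF (s.e. 0.240, adjusted p = 3.50e-04).

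Tap1 (chromosome 17, 34187553 to 34197225, plus strand) encodes one half-transporter of TAP. Its normalized counts were 240 and 285 in TF, 47.2 and 35.5 in TE, 513 and 463 in SF, and 71.5 and 138 in SE, with no overlap between any of the groups. The log2 difference of Tap1 was -2.61 in TE versus TF (s.e. 0.430, edgeR adjusted p = 0.00192) and -2.03 in SE versus SF (s.e. 0.415, adjusted p = 0.00378). Tap2 (chromosome 17, 34203527 to 34216321, plus strand), its partner, had 322 and 551 in TF, 142 and 129 in TE, 456 and 770 in SF, and 154 and 391 in SE. It was the least changed of the genes called in TE versus TF, at a log2 difference of -1.64 (s.e. 0.484, edgeR adjusted p = 0.0331). This call was lost without TF replicate 2, TE replicate 1 or TE replicate 2, at adjusted p = 0.174, 0.0976 and 0.126. In SE versus SF the log2 difference of Tap2 was -0.98 (s.e. 0.473, edgeR adjusted p = 0.121), which was not called. SE replicate 2 was the higher of its pair, and without it the value was -1.81 (adjusted p = 0.00990).

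The immunoproteasome subunits replace catalytic subunits of the standard proteasome in cells exposed to interferon. Psmb8 (chromosome 17, 34197721 to 34201454, plus strand), the interferon-induced counterpart of Psmb5, had 214 and 162 normalized counts in TF, 9.73 and 11.6 in TE, 241 and 284 in SF, and 30.8 and 12.9 in SE. The expanded libraries were at or below 30.8 and the fresh ones at or above 162. Its log2 difference was -4.07 in TE versus TF (s.e. 0.613, edgeR adjusted p = 0.00113) and -3.39 in SE versus SF (s.e. 0.585, adjusted p = 0.00148). Psmb5, its constitutive counterpart, was called higher in both, with a log2 difference of 0.83 in TE versus TF (adjusted p = 0.0419, and 0.103 without TF replicate 1) and 1.84 in SE versus SF (adjusted p = 5.63e-04). Per 100 counts of Psmb5 there were 47.6 and 42.0 counts of Psmb8 in TF, 1.37 and 1.62 in TE, 139 and 117 in SF, and 4.25 and 2.23 in SE.

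Psmb9 (chromosome 17, 34181987 to 34187764, minus strand), the counterpart of Psmb6, was sparse and uneven. It had 58 counts in TF replicate 1 and 0 in TF replicate 2, 4 and 0 in TE, 7 and 50 in SF, and 0 and 0 in SE. The edgeR fit called it in no comparison. DESeq2 called it in TF versus SE (adjusted p = 0.0287) and in SE versus SF (adjusted p = 0.0233), as did edgeR with no filter on low counts (adjusted p = 0.0194 and 0.0164). Against the floor of 3 counts over the group, SE was at least 31.3-fold lower than TF and at least 29.3-fold lower than SF, the first resting on TF replicate 1 alone. In the libraries at 0 the floor of 3 counts stands at between 2.15 and 3.69 normalized counts, for counting error only. The Psmb9 and Tap1 annotations overlap head to head on opposite strands, and whether counting used the strand is not given in the sources used here.

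The third interferon-inducible subunit gene, Psmb10, replaces Psmb7. Its normalized counts were 122 and 237 in TF, 65.9 and 67.8 in TE, 45.9 and 170 in SF, and 60.1 and 57.5 in SE. The SF libraries spanned both expanded groups, and the log2 differences of -1.37 in TE versus TF (edgeR adjusted p = 0.168) and -0.70 in SE versus SF (adjusted p = 0.426) were not called.

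Nlrc5 (chromosome 8, 94434356 to 94527272, plus strand), the activator that acts at class I promoters, was near 0 in expanded cells. Its counts were 27 and 23 in TF, 1 and 0 in TE, 339 and 415 in SF, and 0 and 14 in SE, which are 35.1 and 28.3, 0.749 and 0, 432 and 473, and 0 and 12.0 normalized counts. SF was far above every other group. The ratio of TF to TE was 83.2, with an exact counting interval from 14.3 to 3349 because TE had 1 count. The fitted test called Nlrc5 lower in TE than in TF (edgeR adjusted p = 0.0152) and lower in SE than in SF (log2 difference -6.06, s.e. 1.16, adjusted p = 0.00266). Without TE replicate 2 the first call was lost (adjusted p = 0.0559). With single libraries left out, the log2 difference ran from -8.02 to -5.12 in TE versus TF and from -11.73 to -5.004 in SE versus SF, where every fit called it.

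**Figure D3:**
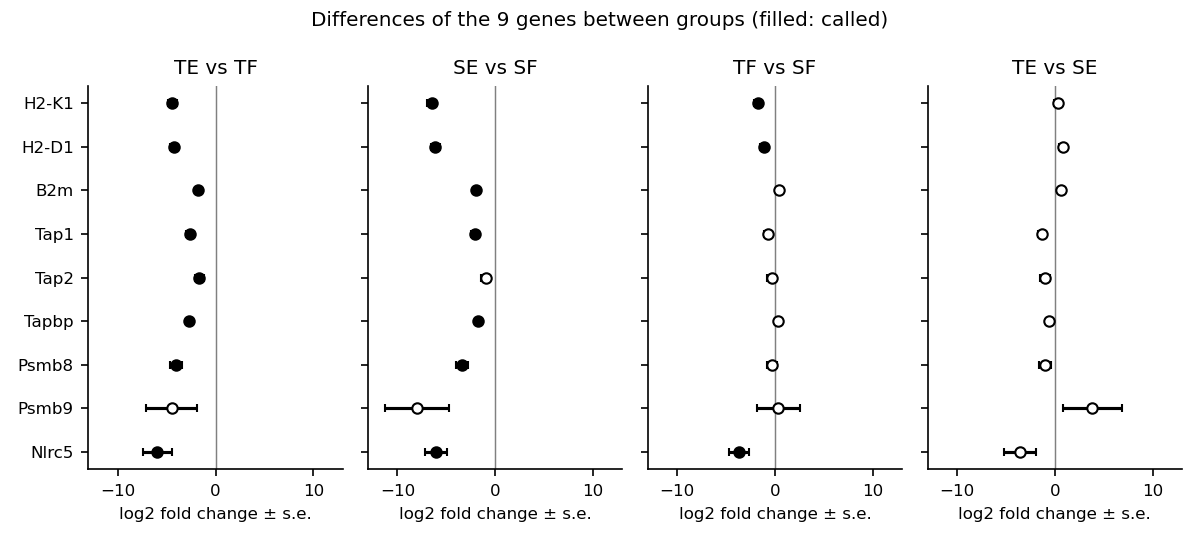
Points give the fitted log2 fold change of each of the 9 genes and bars its approximate standard error, with filled points for genes called. The panels show TE versus TF, SE versus SF, TF versus SF and TE versus SE. In the first panel 8 points are filled, in the second 7, in the third 3 and in the fourth 0. Psmb9, at 0 in both SE libraries, has fitted values that depend on the prior count.

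Between the fresh groups the RNA of the heavy chains and of their activator was lower in the teratoma-derived cells. TF versus SF called 3 of the 9 genes lower and 0 higher, beside 9.13% of all tested genes called lower, 15.1% higher and 24.2% in either direction. H2-K1 was 3.78-fold lower in TF (log2 difference -1.76, s.e. 0.383, edgeR adjusted p = 0.00988), H2-D1 2.45-fold lower (-1.14, s.e. 0.354, adjusted p = 0.0428) and Nlrc5 lower by a log2 difference of -3.67 (s.e. 1.02, adjusted p = 0.0275). The summed 25 heavy chain genes were lower by -1.52 (s.e. 0.255, edgeR adjusted p = 0.00287). The sum undoes only the splitting of reads within the family. The effect of strain haplotypes on this difference between origins was not tested. Without TF replicate 1, the library rich in haematopoietic markers, 2 genes were called, H2-K1 and H2-D1, and Nlrc5 was at -3.83 (adjusted p = 0.0584). The H2-D1 call was lost without TF replicate 2, SF replicate 1 or SF replicate 2 (adjusted p = 0.230, 0.0582 and 0.148), and the Nlrc5 call without any 1 of the TF or SF libraries (adjusted p between 0.0584 and 0.0920).

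The other members were not called between the fresh groups. The log2 differences of TF versus SF were 0.41 for B2m (s.e. 0.189), -0.73 for Tap1 (s.e. 0.400), -0.34 for Tap2 (s.e. 0.469), 0.32 for Tapbp (s.e. 0.232) and -0.32 for Psmb8 (s.e. 0.527). Both TF libraries lay above both SF libraries for B2m and below both for H2-K1 and H2-D1. Median-ratio scaling moved the median of all tested genes by -0.16 in this comparison, and by -0.19 in SE versus SF.

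Between the expanded groups no member was called. TE versus SE gave 0 calls of 9 with edgeR's quasi-likelihood test, beside 7.21% of all tested genes called (3.15% higher and 4.07% lower), 3 members (B2m, Tap1 and Tapbp) at an unadjusted p below 0.05, and 2 calls with DESeq2. H2-K1 differed by a log2 of 0.32 (s.e. 0.442, edgeR adjusted p = 0.780) and its TE and SE ranges overlapped. H2-D1, at 140 and 122 in TE and 52.9 and 101 in SE, did not overlap, nor did B2m, at 852 and 922 against 617 and 543, both higher in TE, with log2 differences of 0.80 (adjusted p = 0.294) and 0.64 (adjusted p = 0.0840). Tap1, Tap2, Tapbp and Psmb8 were lower in both TE libraries than in both SE libraries, at log2 differences of -1.32, -0.99, -0.58 and -1.01 (adjusted p = 0.101, 0.296, 0.207 and 0.390). The heavy chain sum stood on the other side from H2-K1 and H2-D1, at -0.35 (s.e. 0.257, edgeR adjusted p = 0.508). Without SE replicate 1, 3 genes were called lower in TE, Tap1 (-1.71, adjusted p = 0.0313), Tap2 (-1.51, adjusted p = 0.0398) and Nlrc5, for which TE held 1 count.

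TF versus SE, which uses the same SE libraries as the comparisons above, called 6 of the 9 genes higher in TF and 0 lower, beside 14.5% of all tested genes called higher, 9.16% lower and 23.6% in either direction. These were H2-K1 (log2 difference 4.75), H2-D1 (5.00), B2m (2.39), Tapbp (2.10), Psmb8 (3.07) and Tap1 (1.29, edgeR adjusted p = 0.0460). Tap1 was not called without TF replicate 1 (adjusted p = 0.0890), nor with any other single library left out apart from SE replicate 2, and 5 members were called without TF replicate 1.

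Whether the fall with culture differed between the origins was tested as an interaction. It called 2 of the 9 genes, H2-K1 (log2 difference 2.08, s.e. 0.581, edgeR adjusted p = 0.0413) and H2-D1 (1.94, s.e. 0.523, adjusted p = 0.0363), both of which fell further in satellite cells, beside 4.7% of all tested genes called in that direction, 9.62% in the other and 14.3% in either. Without TF replicate 1 the H2-K1 value was 2.11 and its call was lost (adjusted p = 0.0615), and that of H2-D1 was 2.52 and was kept (adjusted p = 0.00774). The H2-K1 call was also lost without TF replicate 2, TE replicate 1, SF replicate 1 or SF replicate 2 (adjusted p = 0.0704, 0.159, 0.0512 and 0.0720), and that of H2-D1 without TF replicate 2, TE replicate 1 or SF replicate 2 (adjusted p = 0.0730, 0.0732 and 0.0634). The heavy chain sum gave 1.17 (s.e. 0.359, adjusted p = 0.0588), which was not called. Tapbp had the opposite sign, -0.90 (s.e. 0.332, edgeR adjusted p = 0.103).

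Other genes of the route were followed in lists, and each count below stands beside the following shares of all tested genes. TE versus TF called 16.2% lower, 9.86% higher and 26.1% in either direction. For SE versus SF the shares were 19.8%, 20.9% and 40.7%, and for TF versus SF 9.13%, 15.1% and 24.2%. The fit without TF replicate 1 applied the filter on low counts anew. It tested 21 nonclassical class I, 9 class II and 8 immune ligand genes, against 19, 8 and 4 in the fit of all libraries. Of 13 partners in peptide generation and loading, TE versus TF called 1 higher and 5 lower and SE versus SF 3 higher and 3 lower, with medians of -0.65 and 0.20. The aminopeptidase gene Erap1, which trims peptides in the endoplasmic reticulum, fell in both, by 1.64 and 1.92 on the log2 scale. It had 451 and 552 normalized counts in TF, 154 and 156 in TE, 587 and 614 in SF, and 178 and 101 in SE, with fresh and expanded libraries apart. Pdia3, which encodes the ERp57 of the loading complex, fell by 1.06 in TE versus TF and rose by 1.14 in SE versus SF. Calr (calreticulin) fell by 1.45 in TE versus TF and was at 0.18 in SE versus SF (edgeR adjusted p = 0.532), and Canx (calnexin) rose by 1.33 in SE versus SF. Hspa5, which encodes the chaperone BiP, fell in both, by 0.83 and 1.75. The first of these falls was not called in the fit without TF replicate 1. Without TF replicate 1, 3 partners were called lower in TE.

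Of the 14 genes of the constitutive proteasome core, SE versus SF called 12 higher and 0 lower (median 1.28), and TE versus TF 2 higher and 0 lower (median 0.43, and 0 higher without TF replicate 1). Psmb1 rose by 1.83 and Psma5 by 1.82 on the log2 scale in SE versus SF, next to 1.84 for Psmb5. Between the fresh groups 7 of the 14 were higher in TF and 0 lower, and 3 without TF replicate 1.

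Of 28 genes listed as nonclassical class I, a list that also holds the classical gene H2-L, 19 were tested. TE versus TF called 9 lower and 0 higher (5 lower without TF replicate 1), and SE versus SF 10 lower and 0 higher. H2-Q4, of the Qa family, had 689 and 897 normalized counts in TF, 22.6 and 6.13 in TE, 5365 and 4461 in SF, and 10.7 and 22.5 in SE, and its TE and SE ranges overlapped. H2-Q5 and H2-Q6 were at 0 in all 4 expanded libraries, with SE at least 239-fold and at least 67.4-fold lower than SF. H2-T22 fell by 2.90 in TE versus TF and by 1.80 in SE versus SF. H2-Q4, H2-Q5 and H2-Q6 share 31-base windows with H2-K1 or H2-D1, so their single values are uncertain. Sharing among the listed genes themselves was not measured.

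Among 13 regulators of class I transcription, TE versus TF called 4 lower and 0 higher and SE versus SF 7 lower and 1 higher (5 lower and 0 higher in a fit without TF replicate 1). Irf1, an interferon-induced activator that binds class I promoters, had 2962 and 3304 normalized counts in TF, 150 and 119 in TE, 2991 and 2609 in SF, and 180 and 200 in SE. Its log2 difference was -4.49 in TE versus TF (s.e. 0.219, edgeR adjusted p = 2.50e-06) and -3.69 in SE versus SF (s.e. 0.211, adjusted p = 3.48e-06).

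Rfx5, a DNA-binding subunit of the RFX complex with which NLRC5 works, was not called by the edgeR fit over all libraries in any comparison, with 249 and 485 normalized counts in TF, 174 and 197 in TE, 536 and 697 in SF, and 416 and 329 in SE. In TE versus TF its log2 difference was -0.93 (adjusted p = 0.0820), and it was called lower without TF replicate 1 (-1.31, edgeR adjusted p = 0.0285) and with no filter on low counts (adjusted p = 0.0399). The NF-κB subunit genes were set apart by SF. Nfkb1 had 13804 and 16263 there and between 1397 and 2704 in the other 6 libraries, and it was lower in TF than in SF by a log2 difference of -2.63 (s.e. 0.219, edgeR adjusted p = 1.38e-04). Rela was lower by -1.43 in that comparison (adjusted p = 0.00156).

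Most interferon-stimulated genes were lower in expanded cells. Of 33, TE versus TF called 27 lower and SE versus SF 30 lower, with 0 higher in either and medians of -3.67 and -3.90 (-3.67 and -3.64 with genes at 0 set to their bound). Without TF replicate 1 the first count was 26. Iigp1, an interferon-γ-induced GTPase gene, had 789 and 1294 normalized counts in TF, 1286 and 1611 in SF, and 0 in all 4 expanded libraries, at least 920-fold and at least 1245-fold lower. Between the fresh groups 6 were called higher in TF and 2 lower (4 and 0 without TF replicate 1), and among them Usp18 and Bst2 were higher in TF by 3.28 and 3.02 and Gbp2 lower by -1.11 (not called without TF replicate 1, adjusted p = 0.103).

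Between the expanded groups 7 of the 33 were called higher in TE and 0 lower, beside 3.15% of all tested genes called higher, and 8 higher and 1 lower in a fit without TF replicate 1. Cxcl10, a chemokine gene, had 10.5 and 15.4 normalized counts in TE and 0 in both SE libraries (34 counts against 0). Gbp3 had 11.2 and 4.63 against 0 and 0, at least 6.82-fold higher. In TF, Cxcl10 had 439 and 468 and Gbp3 755 and 1023, far above either expanded group. No member was called in this comparison, as given above.

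**Figure D4:**
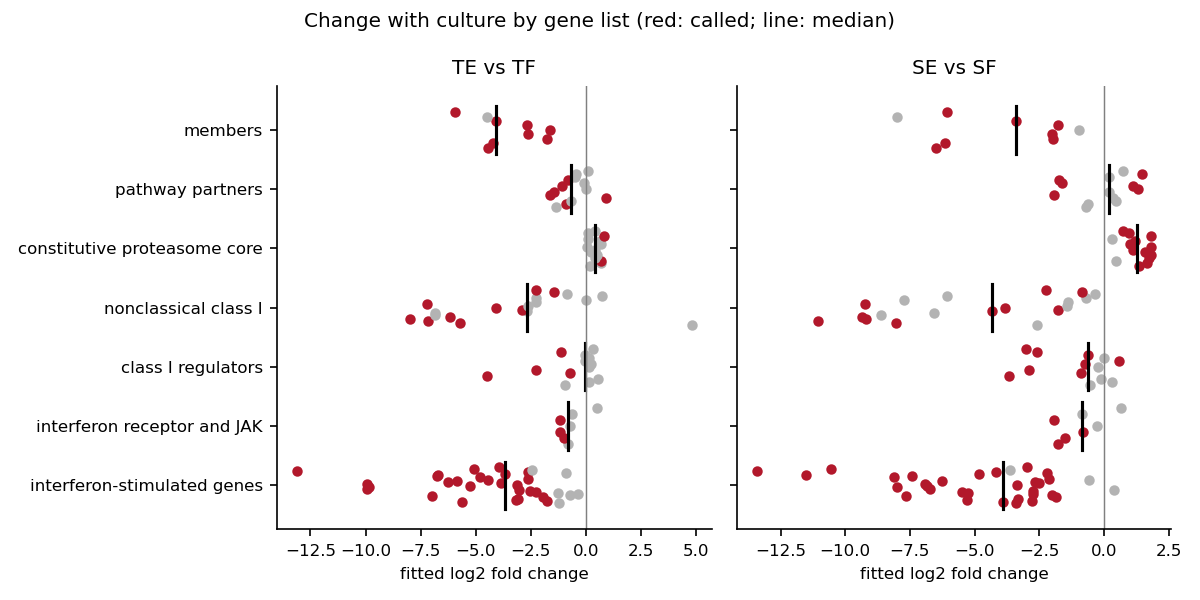
Each point is the fitted log2 fold change of 1 tested gene with culture, TE versus TF on the left and SE versus SF on the right, by gene list, with called genes in red and a black line at the list's median. The interferon-stimulated genes lie mostly below 0 in both panels (27 and 30 of 33 called lower), while the constitutive proteasome genes lie at or above 0 (0 called lower). Genes at 0 in a group have fitted values that depend on the prior count.

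Upstream of these genes, 3 of 7 interferon receptor and JAK genes were called lower in TE versus TF (2 without TF replicate 1) and 4 of 7 in SE versus SF, with 0 higher. Jak1 fell by 1.16 and 1.92, and the receptor chain gene Ifnar2 by 0.98 and 1.51 on the log2 scale. Of 8 immune ligand genes read by natural killer or T cells, 4 were tested, of which 2 were called lower in TE versus TF (1 without TF replicate 1) and 1 in SE versus SF. Cd274, which encodes PD-L1, fell by 3.09 and 3.81, from 369 and 137 normalized counts in TF to 20.8 and 36.1 in TE and from 1095 and 483 in SF to 40.2 and 57.7 in SE. Its log2 difference in TE versus TF was -2.17 without TF replicate 1 (edgeR adjusted p = 0.0170).

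Class II genes, which present peptides to CD4 T cells and mark professional antigen-presenting cells, showed where TF replicate 1 differed. The 10 genes summed to 4253 normalized counts in TF replicate 1 and 443 in replicate 2, to 745 and 888 in SF, and to between 33.7 and 54.0 in the expanded libraries. Of 8 tested, 4 were called lower in TE versus TF (3 without that replicate) and 5 in SE versus SF. Cd74 had 2144 and 229 in TF, 175 and 270 in SF, 5.24 and 0 in TE, and 3.58 and 0 in SE. Of the members, H2-D1 (3342 and 1692) and Psmb9 (75.3 and 0) were the most uneven between those replicates, both higher in replicate 1. H2-K1, B2m, Psmb8 and Nlrc5 were also higher there, by less. Tap2 (322 and 551), Tapbp (1335 and 1727) and Tap1 (240 and 285) were higher in TF replicate 2.

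**Figure D5:**
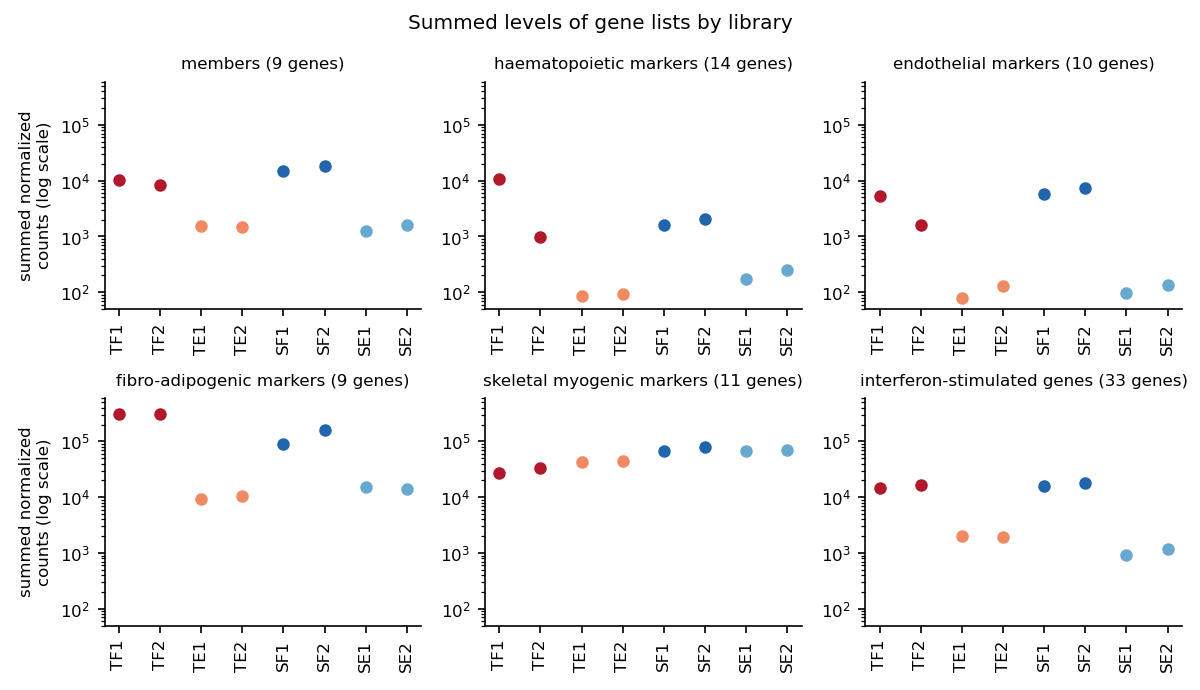
Panels plot the summed normalized counts of 6 gene lists in each of the 8 libraries, on a shared log y axis. The 9 members lie between 8488 and 18411 in the fresh libraries and between 1276 and 1634 in the expanded ones. The haematopoietic markers reach 10745 in TF replicate 1 against 994 in replicate 2. The sum of the skeletal myogenic markers, which moved in both directions, ranges from 27365 to 79550 over all 8.

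The genes outside the 9 members whose pattern was most like each member over the 8 libraries were ranked by the root mean square difference of log2(normalized count + 1), centred on each gene's mean. For H2-K1 they were Gbp5 (0.35), Cebpd (0.43) and Pex5l (0.49). Cebpd was nearest to H2-D1 (0.21), Myo6 to B2m (0.13), Fhl1 to Tap1 (0.21), Gbp6 to Tap2 (0.17) and Tpst1 to Tapbp (0.14). Col23a1 was nearest to Psmb8 (0.29), Cblc to Psmb9 (0.73) and Nap1l5 to Nlrc5 (0.58). H2-K1 and H2-D1 were 0.46 apart, which placed H2-D1 at rank 3 among the 17581 other tested genes for H2-K1. Only for these heavy chains was a member among the 4 nearest of another, and the 2 share sequence windows. H2-T22 was the third nearest gene to Tapbp (0.21).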

How the data were processed

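The authors deposited 1 table of estimated counts (expected counts, not normalized) per gene symbol for the 8 libraries, made with a stranded total RNA kit for small inputs and sequenced from both ends. The submitters' processing notes name CASAVA, kallisto 0.44.0 and GRCm38/mm10. Whether counting used the strand is not given in the sources used here. Groups came from the sample labels. Whole numbers made up 74.4% to 84.4% of each library's values, 0 rows lacked a gene name, and the counts were rounded for testing.

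Genes passing filterByExpr (17582 of 24980) were normalized by TMM and tested with edgeR 4.0.16 in 1 fit of the 4 groups without a replicate term (common dispersion 0.233). Calls needed a Benjamini-Hochberg adjusted p below 0.05 and a fold above 1.25, the thresholds of the study's methods. Each s.e. is approximate, the absolute log2 difference divided by the square root of the F statistic of its test. Printed normalized counts were divided by median-ratio size factors. A group at 0 was set to 3 counts for bounds. The fit was tested on simulated data. Intervals cover counting error only.

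The 9 genes and the other lists were chosen with earlier results of these data known. Named were the members, Irf1, Rfx5 and Psmb10 always, up to 3 called genes per list, direction and comparison, the 3 nearest genes of each member, and a few further list genes chosen after their values were seen (Psmb5, Calr, Canx, H2-T22, H2-Q4 and Cd74 among them). The lists were pathway partners, constitutive proteasome core, nonclassical class I, class II, class I regulators, interferon-stimulated genes, interferon receptors and JAKs, immune ligands and cell type markers. Alternatives were median-ratio size factors, no filter, DESeq2 1.42.0, 2-group fits, a replicate block, glmTreat and each library left out, with the heavy chain sum and the list counts without TF replicate 1 added after seeing the data. Positions are from GENCODE M21 and promoters from RefSeq (GRCm38.p6). One further regulator is not reported here.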

Additional observations from a re-analysis of the deposited data

Results flagged for a closer look

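The change with culture differed between the teratoma-derived and the satellite cells (interaction test, edgeR adjusted p below 0.05 and a fold above the study's minimum) for 2 members and for genes of the other lists, of which those the text names are given. Values are log2 differences of TE versus TF minus SE versus SF. For the heavy chains they were 2.08 for H2-K1 (adjusted p = 0.0413) and 1.94 for H2-D1 (adjusted p = 0.0363), and for the nonclassical H2-Q4 2.32 (adjusted p = 0.0439). In these genes the fall was larger in satellite cells.

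Genes of the loading route had negative values, -2.20 for Pdia3 (adjusted p = 0.00182), -1.92 for Sec61b (adjusted p = 0.0400), -1.64 for Calr (adjusted p = 0.00922) and -1.32 for Canx (adjusted p = 0.0215). Of the constitutive proteasome, Psmb1 was at -1.77 (adjusted p = 0.00543), Psma6 at -1.37 (adjusted p = 0.0239) and Psma4 at -1.32 (adjusted p = 0.0217).

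Among regulators, Nfkb1 was at 3.32 (adjusted p = 2.32e-04), Rela at 1.49 (adjusted p = 0.00952) and Ciita, the class II activator, at 4.09 (adjusted p = 0.0434). Among interferon-stimulated genes, Cxcl10 was at 5.50 (adjusted p = 0.0182), Gbp3 at 4.77 (adjusted p = 0.0423), Parp14 at 3.33 (adjusted p = 0.0338) and Rtp4 at -3.85 (adjusted p = 0.0240). Cxcl10 and Gbp3 were at 0 in both SE libraries, so their fitted values depend on the prior count. Without TF replicate 1, the library rich in haematopoietic markers, the calls of H2-K1, H2-Q4 (2.14, adjusted p = 0.0741), Sec61b (-1.91, adjusted p = 0.0726), Canx, Ciita (3.67, adjusted p = 0.0997) and Gbp3 (4.63, adjusted p = 0.0651) were lost, and those of the other genes given here were kept. With each of the 8 libraries left out in turn, Pdia3, Psmb1, Nfkb1 and Cxcl10 stayed called every time and Ciita never.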

How the results depend on the processing

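Of the 54 results on members in the 6 comparisons, median-ratio size factors left all 54 calls and directions as they were. No setting reversed a called value. For TE versus SE the number of members called was 0, and it was 2 with no filter on low counts and 2 with DESeq2. With no filter it rose from 7 to 9 in SE versus SF (Tap2 and Psmb9) and from 6 to 8 in TF versus SE (Psmb9 and Nlrc5), and DESeq2 added Psmb9 in both. For the interaction it was 2, and 1 with glmTreat, which also lost H2-D1 in TF versus SF (adjusted p = 0.0675) and Tap1 in TF versus SE (adjusted p = 0.0668). Over 178 results on members and named list genes, leaving out 1 library lost between 7 and 32 calls per fit. Leaving out 1 library at a time gave between 0 and 3 members in TE versus SE (3 without SE replicate 1), between 1 and 3 in TF versus SF, and between 0 and 2 in the interaction. The cause was not tested beyond the smaller number of libraries in those fits. Values that were not called and changed sign were as follows. The heavy chain sum put H2-K1 and H2-D1 at -0.35 in TE versus SE, DESeq2 put Nlrc5 at -0.12 in the interaction, and the replicate block put Psmb9 at -2.12 in TF versus SF. With single libraries left out, the log2 difference of H2-K1 in TE versus SE ran from -0.26 to 1.16, that of Nlrc5 from -5.65 to 2.11, that of Rfx5 in TF versus SE from -0.64 to 0.33, and that of Psmb10 in SE versus SF from -1.36 to 0.59. Psmb9 ran from -8.26 to 3.89 in TE versus TF and from -8.04 to 2.26 in TF versus SF, and Tap2 from -0.79 to 0.14 in TF versus SF. In the interaction the ranges were -1.17 to 0.17 for Tap2, -1.18 to 0.08 for Psmb8, -0.31 to 11.94 for Psmb9, -1.98 to 5.78 for Nlrc5, -0.79 to 0.19 for Rfx5 and -1.96 to 0.016 for Psmb10.

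Correlations of same-numbered deviations between groups lay between -0.026 and 0.076. Such low values do not exclude that libraries with the same replicate number shared a source or a batch, which the labels do not give. With the replicate block the members called were 0 in TE versus SE, 5 in TF versus SE, 7 in SE versus SF, 8 in TE versus TF, 2 in TF versus SF and 2 in the interaction, and over all genes the calls were between 1205 and 6757 per comparison. With 2 libraries per group the spread is poorly known, and genes with few counts (Psmb9 and, in expanded cells, Nlrc5 and Psmb8) give imprecise folds. DESeq2 called between 5121 and 8174 genes in the 4 other comparisons of 2 groups, where edgeR called between 4155 and 7152, and 2147 against 1268 in TE versus SE.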
